A study of Mus musculus with 18 samples.

Results

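The 9 genes described here belong to the β-adrenergic and cyclic AMP (cAMP) pathway and were chosen by name from the 23457 rows of the gene count table. They are Adrb1, Grk5, Adcy5, Adcy6, Pde4d, Pde3a, Prkaca, Prkar1a and Ppp1r1a. All 9 were found in both the count table and the table of FPKM, and 8 of the 9 passed the filter on low counts that left 12281 genes for testing. The exception was Ppp1r1a.

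The RNA came from the hearts of 18 male C57BL/6 mice, aged 17 weeks, with 6 hearts for each of 3 adeno-associated virus vectors. One vector, rAAV6-PLCβ1b, carried phospholipase Cβ1b, the splice variant of Plcb1 under study, and rAAV6-PLCβ1a carried the variant described as inactive in heart. Both variants were FLAG-tagged. The third, rAAV6-blank, held a promoter but gave no protein. Every mouse thus received virus, through the tail vein at 8 weeks of age and 9 weeks before the heart was taken, and no uninjected mice are among the samples, so an effect of the virus itself cannot be told apart from what all groups share. The sample labels name both ventricles as the tissue, and the study's methods name the left ventricle. The mice of a group are separate animals, and are named here by their mouse number. These numbers ran from 26 to 36 in the blank group, from 7 to 21 with PLCβ1a and from 4 to 17 with PLCβ1b. Anything that goes with the order of the numbers therefore cannot be told apart from a difference between blank and PLC hearts. The sample labels also end in an index that runs through the blank, then the PLCβ1a, then the PLCβ1b hearts. Whatever goes with that index cannot be told apart from a difference between any of the groups.

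Noradrenaline and adrenaline bind β-adrenergic receptors on the myocyte, and the receptor activates the stimulatory G protein, which turns on adenylyl cyclase. The cyclase makes cAMP, phosphodiesterases degrade it, and cAMP releases the catalytic subunit of protein kinase A (PKA) from its regulatory subunit. PKA then phosphorylates channels and contractile proteins and raises the force and rate of the heartbeat. Receptor kinases desensitise the receptor, and lower receptor density is a known feature of failing hearts.

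Each heart had 13246339 to 24155465 counts, of which 3908354 to 7591558 fell on genes outside the mitochondrial genome, and mt-Rnr2, a ribosomal RNA of the mitochondrion, made up 53.5 to 57.5% of all counts. Plcb1, the gene carried by both PLC vectors, ran from 5.43 to 6.89 CPM, which are counts scaled to the library size, in blank hearts, from 17.8 to 29.3 in PLCβ1a hearts and from 23.2 to 70.0 in PLCβ1b hearts. Of 8 markers of ventricular myocytes, led by Myl2, the summed level was 12930 to 14900 FPKM in the blank group, 12700 to 14290 with PLCβ1a and 12790 to 14270 with PLCβ1b. None of the markers tested in 9 lists of cell types, from fibroblasts and endothelium to leukocytes and nerve, was called in any comparison. Of all genes tested at most 0.138% were. Only 2 of 6 nerve, 2 of 8 adipocyte and 1 of 5 erythrocyte markers passed the filter on low counts, so these types were barely covered. In edgeR's quasi-likelihood test 2 of 8 fibroblast markers had an unadjusted p below 0.05 in each PLC group against blank (7.41% and 8.58% of all genes), and every other list had 0 or 1. The summed FPKM of the erythrocyte list was 362 to 565 in blank hearts, 505 to 783 in PLCβ1a hearts and 407 to 694 in PLCβ1b hearts, while its 4 globin genes had a count of 0 in every heart, and its part in the results below was not tested. In whole ventricle, fewer cells of a type and less RNA per cell cannot be told apart.

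FPKM, which scale a count by transcript length and by depth, allow levels to be compared between genes. PKA subunits were the most abundant of the 9 genes. Prkar1a, which encodes the type I alpha regulatory subunit of PKA, stood highest at 49.4 ± 3.33 FPKM (SD, n = 18), followed by the catalytic subunit gene Prkaca at 37.4 ± 2.36. The cyclase Adcy6 followed at 15.9 ± 1.08, then the phosphodiesterase Pde3a at 8.58 ± 0.700, the cyclase Adcy5 at 6.13 ± 0.537 and the phosphodiesterase Pde4d at 4.33 ± 0.381. The β1-adrenergic receptor gene Adrb1 (2.56 ± 0.393) and the receptor kinase gene Grk5 (2.51 ± 0.393) came next, and Ppp1r1a came last at 0.218 ± 0.102. Each neighbour in this order kept its place in all 18 hearts, with the exception of Adrb1 and Grk5, where Adrb1 was the higher in 11 of 18 hearts and the levels did not differ beyond their spread. The smallest of the other steps was that from Prkar1a to Prkaca, with a mean ratio of 1.33 and a range of 1.11 to 1.75 over the hearts.

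**Figure D1:**
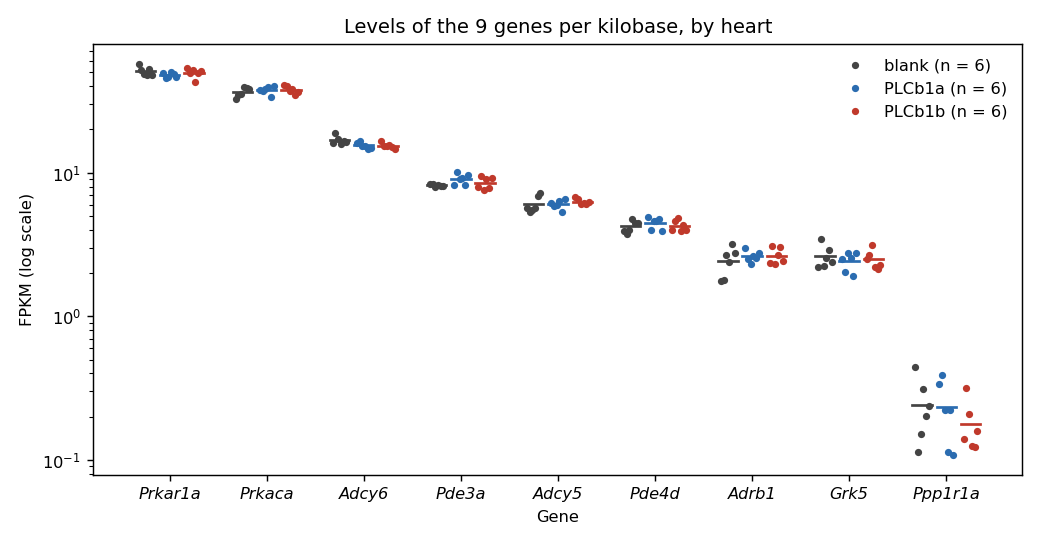
Level of each of the 9 genes in FPKM (log scale) in each of 18 hearts, with blank, PLCβ1a and PLCβ1b hearts side by side and a bar at the mean of each group (n = 6). The order runs from Prkar1a at 49.4 FPKM to Ppp1r1a at 0.218 FPKM, and the 3 groups of each gene lie at about the same height on this scale.

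The counting annotation held 1 transcript model for each of the 9 genes, in mm10 coordinates, and none of their exons overlapped an exon of another gene. Adrb1 lies at chr19:56722372-56724862 in a single exon, and Grk5 at chr19:60889749-61092555 in 16 exons, both on the plus strand. Adcy5 lies at chr16:35155636-35304549 (plus strand), Adcy6 at chr15:98589986-98607633 (minus strand), Pde4d at chr13:108654177-109955969 (plus strand) and Pde3a at chr6:141249269-141499351 (plus strand). Prkaca lies at chr8:83972978-83996445 and Prkar1a at chr11:109650949-109669648, both on the plus strand, and Ppp1r1a at chr15:103530279-103537992 on the minus strand. For 8 of the 9 genes the counted exons held at least 97.9% of the coding bases that GENCODE M21 assigns to the gene on the same assembly. Pde4d, whose many isoforms differ in their amino-terminal ends, was the exception. GENCODE M21 lists 20 transcripts for it, 12 of them coding, and the counted exons held 60.5% of their merged coding bases. Of all merged exon bases, coding or not, the counted exons held 37.82% for Pde4d and 44.89% for Grk5. The share for Pde3a was lower than either, and the other genes had at least 70.43%. Reads from exon bases outside the counted model are not in the counts of a gene, which applies most to Pde3a, Pde4d and Grk5.

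Between PLCβ1b and blank hearts none of the 8 members tested was called at a false discovery rate (FDR) below 0.1 in edgeR's quasi-likelihood model, where 0.0977% of all genes tested were called. At an unadjusted p below 0.05 there was again none of the 8, against 7.41% of all genes. The FDR of the 8 ran from 0.680 to 0.958. Their log2 fold changes ran from -0.10 to 0.13, with a median of 0.05 where the median of all genes was -0.0009, and the median size of the change was 0.06 for the 8 and 0.07 for all genes. The 95% interval of each of the 8 lay within 1.3-fold in either direction, and that held for 69.7% of all genes tested. Between PLCβ1a and blank hearts none was called (0.138% of all genes were), and 1 of the 8, Pde3a, had an unadjusted p below 0.05 (8.58% of all genes). Between PLCβ1b and PLCβ1a hearts none was called, where 0.0% of all genes were, and none of the 8 reached an unadjusted p below 0.05 (4.42% of all genes). Between PLCβ1b hearts and the blank and PLCβ1a hearts together none was called (0.0407% of all genes), and none reached an unadjusted p below 0.05 (5.08%). The first 2 comparisons share the blank hearts. No member had groups without overlap in CPM in any of the 4 comparisons, where 0.48%, 0.594%, 0.179% and 0.0163% of all genes did, in the order given here.

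**Figure D2:**
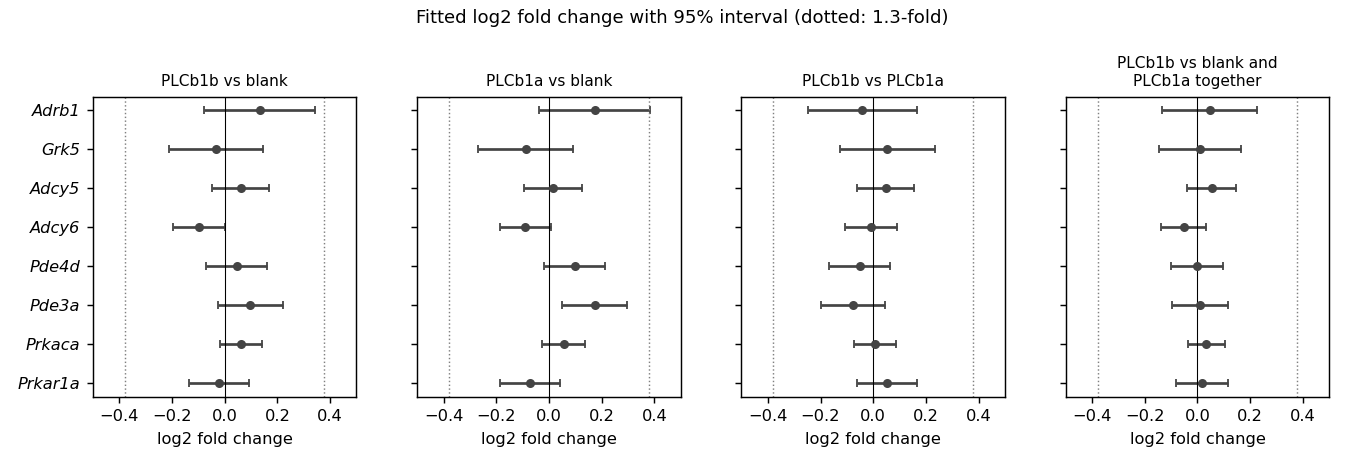
Fitted log2 fold change (point) and 95% interval (bar) of the 8 genes tested in each of the 4 comparisons, with 0 as a solid line and 1.3-fold in either direction as dotted lines. All intervals reach 0 except that of Pde3a between PLCβ1a and blank hearts, and only the upper end of Adrb1 in the same comparison, at 0.38, passes the dotted line.

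At the head of the pathway, Adrb1 spanned 3.96 to 6.17 CPM around a median of 5.29 in the blank group, 5.16 to 6.37 around 5.84 with PLCβ1a and 4.82 to 6.53 around 5.58 with PLCβ1b. Blank hearts 26 and 30 were the lowest of all 18, and the other hearts overlapped. The log2 fold change was 0.13 (SE 0.10, FDR 0.819 from edgeR's quasi-likelihood test) for PLCβ1b against blank and 0.17 (SE 0.10, FDR 0.670) for PLCβ1a against blank. Adrb1 rested on 53 to 158 counts per heart, had the widest intervals of the 8 genes, and its highest heart exceeded its lowest by 1.63-fold.

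Grk5, a receptor kinase that phosphorylates activated receptors, spanned 7.06 to 10.21 CPM around a median of 7.37 in the blank group, 6.33 to 8.30 around 7.56 with PLCβ1a and 7.22 to 8.80 around 7.49 with PLCβ1b. The 3 groups overlapped almost wholly, and the highest value was that of blank heart 30. In the fit the log2 fold change against blank was -0.03 (SE 0.09) for PLCβ1b and -0.09 (SE 0.09) for PLCβ1a, with an FDR of 0.953 and 0.829 from edgeR's quasi-likelihood test. Both became positive without blank heart 30, at 0.06 and 0.0026.

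**Figure D3:**
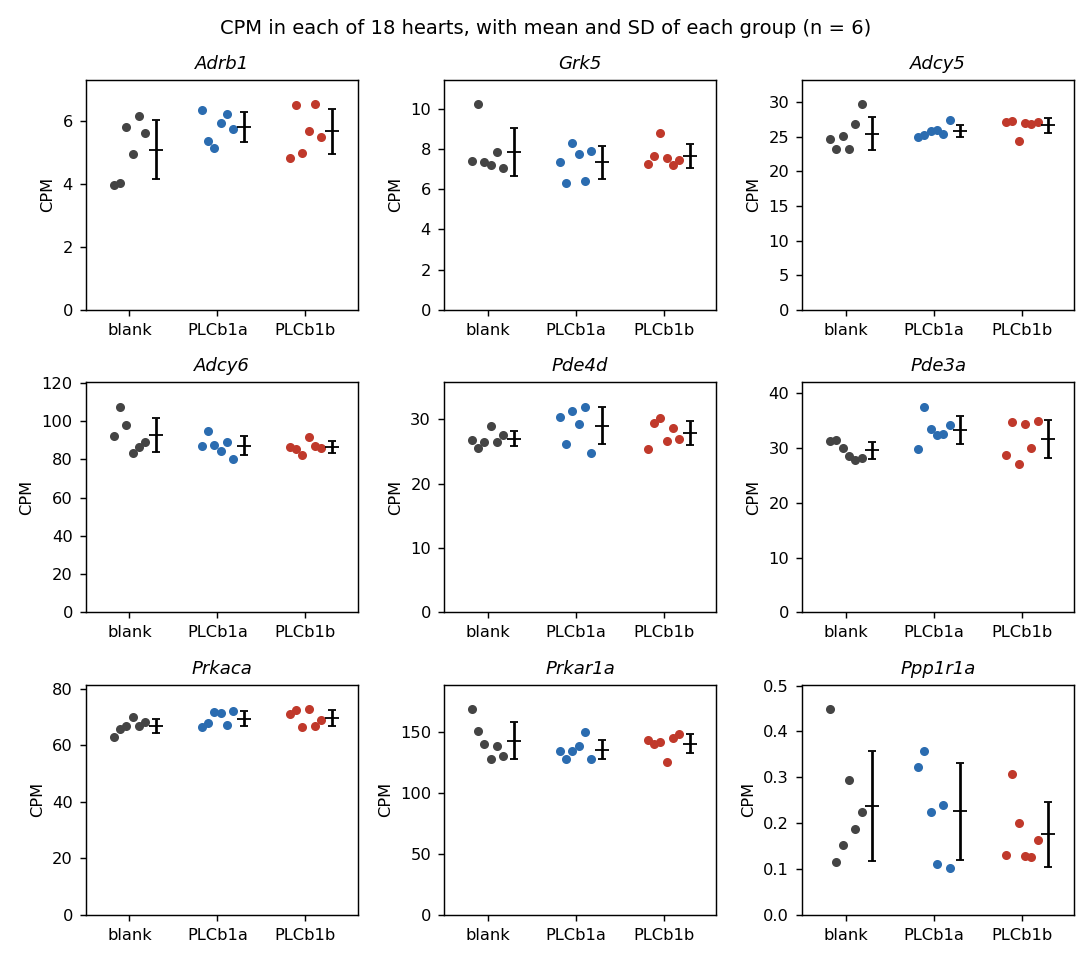
CPM of each of the 9 genes in each heart (points, 6 per group) with the mean and SD of the group beside them, on axes that start at 0. No gene has a group without overlap with the others, and the spread is widest for Ppp1r1a, which rests on 2 to 8 counts per heart.

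Of the cyclases, Adcy5 and Adcy6 are the forms known as the main ones of the ventricular myocyte. Adcy5 spanned 23.3 to 29.7 CPM around a median of 24.9 in the blank group, 25.02 to 27.4 around 25.6 with PLCβ1a and 24.4 to 27.2 around 27.1 with PLCβ1b. In PLCβ1b 5 hearts lay between 26.8 and 27.2 CPM, within the range of blank hearts, and heart 8 lay apart at 24.4. The log2 fold change was 0.06 (SE 0.05) for PLCβ1b and 0.01 (SE 0.05) for PLCβ1a against blank, with an FDR of 0.848 and 0.966 from edgeR's quasi-likelihood test.

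Adcy6 ran from 83.3 to 108 CPM in blank hearts, from 80.0 to 95.03 in PLCβ1a hearts and from 82.4 to 91.9 in PLCβ1b hearts. The groups overlapped, and blank heart 30 was the highest of all. In the fit the log2 fold change against blank was -0.10 (SE 0.05, unadjusted p = 0.0514, FDR 0.680) for PLCβ1b and -0.09 (SE 0.05, unadjusted p = 0.0735, FDR 0.631) for PLCβ1a in edgeR's quasi-likelihood model. Here the unit of the file mattered. Over log2 CPM the exact permutation test gave p = 0.136 and 0.208, and over FPKM, where the blank mean was 16.8 and those of PLCβ1a and PLCβ1b were 15.5 and 15.4, it gave p = 0.0216 and 0.0303. In limma on log2(FPKM + 0.1), adjusted over all genes, the FDR was 0.822 and 0.736. Adcy6 in log2 CPM moved against the TMM scaling factor of the library (r = -0.59 over 18 hearts with group means removed, given as a description). CPM are themselves divided by this factor, so they are not independent of it, and its part in the difference was not tested. In every heart Adcy6 exceeded Adcy5, with a ratio in FPKM of 2.83 ± 0.479 in the blank group, 2.57 ± 0.217 with PLCβ1a and 2.46 ± 0.0924 with PLCβ1b (SD, n = 6), and the log2 ratio differed by -0.19 between PLCβ1b and blank (exact permutation test, p = 0.0909).

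Pde3a, which encodes a cAMP phosphodiesterase that cyclic GMP inhibits, was the member with the largest difference relative to its error. It spanned 27.9 to 31.5 CPM around a median of 29.3 in the blank group, 29.8 to 37.5 around 32.9 with PLCβ1a and 27.1 to 34.9 around 32.2 with PLCβ1b. In PLCβ1a 5 of 6 hearts were above every blank heart and heart 7 was within their range, while in PLCβ1b 3 hearts were above all blank hearts and 1 below them. The log2 fold change for PLCβ1a against blank was 0.17 (SE 0.06, unadjusted p = 0.00683), which did not pass adjustment over all genes (FDR 0.357, edgeR's quasi-likelihood test). The exact permutation test of this single gene gave p = 0.013 over log2 CPM and 0.0195 over FPKM. For PLCβ1b against blank the log2 fold change was 0.10 (SE 0.06, FDR 0.769), and the difference between PLCβ1b and PLCβ1a was -0.08 (SE 0.06, FDR 0.9999), so the PLC groups were not shown to differ. The 95% interval of that last difference ran from -0.20 to 0.04.

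Pde4d, a cAMP-specific phosphodiesterase that is part of β-receptor and calcium release complexes, ran from 25.6 to 28.9 CPM in the blank group, from 24.8 to 31.9 with PLCβ1a and from 25.4 to 30.3 with PLCβ1b. Both PLC groups spread beyond the blank hearts on either side. In the fit the log2 fold change against blank was 0.05 (SE 0.06) for PLCβ1b and 0.10 (SE 0.06) for PLCβ1a, with an FDR of 0.898 and 0.656 from edgeR's quasi-likelihood test. The ratio of Pde3a to Pde4d in FPKM was 1.95 ± 0.202 in the blank group, 2.05 ± 0.352 with PLCβ1a and 1.999 ± 0.280 with PLCβ1b (SD, n = 6).

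Prkaca, the main catalytic subunit of PKA, varied least. It spanned 62.9 to 70.0 CPM around a median of 66.8 in the blank group, 66.5 to 72.2 around 69.6 with PLCβ1a and 66.4 to 72.7 around 69.9 with PLCβ1b, so that the highest heart of the 18 exceeded the lowest by 1.16-fold. In each PLC group 3 hearts were above every blank heart, and the rest overlapped. The log2 fold change against blank was 0.06 (SE 0.04) in both PLC groups, with an FDR of 0.781 for PLCβ1b and 0.737 for PLCβ1a in edgeR's quasi-likelihood model. Its biological coefficient of variation of 0.0507 was at percentile 4.10 of all genes tested, and at percentile 12 of the 500 genes nearest to it in level, whereas the other 7 members lay between percentiles 53.0 and 84.2 by that measure.

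Prkar1a spanned 128 to 168 CPM around a median of 139 in the blank group, 128 to 150 around 134 with PLCβ1a and 125 to 149 around 142 with PLCβ1b. The highest heart was blank 26 and the lowest PLCβ1b 10, and the groups overlapped. In the fit the log2 fold change against blank was -0.02 (SE 0.06) for PLCβ1b and -0.07 (SE 0.06) for PLCβ1a, with an FDR of 0.958 and 0.759 from edgeR's quasi-likelihood test. The ratio of the regulatory to the catalytic subunit, Prkar1a to Prkaca in FPKM, was 1.41 ± 0.199 in the blank group, 1.27 ± 0.0968 with PLCβ1a and 1.31 ± 0.118 with PLCβ1b (SD, n = 6), and differed between groups by less than the spread of the hearts (exact permutation test, p = 0.338 for PLCβ1b and 0.175 for PLCβ1a against blank).

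The cAMP response element, bound by the factor CREB that PKA phosphorylates, reads TGACGTCA. RefSeq starts for 6 of the 9 genes were available on GRCm38.p6, the assembly of mm10, and 12 promoter windows of these, each from 250 bases before to 50 after a start, were searched on both strands for this palindrome. It was found once, in the Prkar1a promoter, within a pair of overlapping windows, and 1.79% of all 32851 promoter windows held it. The half-sites TGACG and CGTCA, which overlap within the full element, were in 20.8% of all windows and were searched as well. The 250 bases before the starts of Prkar1a (chr11:109650699-109650948, plus strand) and Prkaca (chr8:83972728-83972977, plus strand), whose starts are also those of the counting annotation, are shown since these genes encode the paired subunits of PKA, with the full element and the half-sites in capitals.
Prkar1a: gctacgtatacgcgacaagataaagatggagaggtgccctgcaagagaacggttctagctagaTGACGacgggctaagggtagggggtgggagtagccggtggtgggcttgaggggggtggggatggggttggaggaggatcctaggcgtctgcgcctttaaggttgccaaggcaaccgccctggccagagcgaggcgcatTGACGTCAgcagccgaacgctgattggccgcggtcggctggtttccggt
Prkaca: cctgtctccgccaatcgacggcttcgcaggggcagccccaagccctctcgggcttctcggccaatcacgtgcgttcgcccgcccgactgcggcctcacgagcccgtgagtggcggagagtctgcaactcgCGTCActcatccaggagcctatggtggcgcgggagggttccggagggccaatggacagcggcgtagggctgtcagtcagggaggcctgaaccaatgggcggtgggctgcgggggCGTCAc
In Prkar1a the first base of the full element lay at position -49, counted back from the start site, and a further half-site lay upstream. In Prkaca there were 2 half-sites and no full element. These matches describe the letters of the windows only.

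Ppp1r1a, which encodes inhibitor 1 of protein phosphatase 1, a PKA target that holds off dephosphorylation, had 2 to 6 counts in the blank group, 2 to 8 with PLCβ1a and 2 to 6 with PLCβ1b. That was too few for the filter, and corresponds to a mean of 0.243 FPKM in the blank group, 0.232 with PLCβ1a and 0.179 with PLCβ1b. The groups overlapped (exact permutation test over log2(CPM + 0.1), p = 0.312 for PLCβ1b and 0.872 for PLCβ1a against blank). With no filter on low counts its log2 fold change was -0.38 for PLCβ1b against blank, with an FDR of 0.881 from edgeR's quasi-likelihood test.

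A further 94 genes of the same pathway were listed by role, and 86 of them passed the filter on low counts. Between PLCβ1b and blank hearts none of the 86 was called in edgeR's quasi-likelihood model, and 10, or 11.6%, had an unadjusted p below 0.05, 6 higher and 4 lower. Of all genes, 0.0733% were called higher and 0.0244% lower, and 3.94% and 3.47% had such a p. Between PLCβ1a and blank 1 was called and 9 had an unadjusted p below 0.05, 5 higher and 4 lower, where 0.0977% and 0.0407% of all genes were called higher and lower and 4.42% and 4.16% had such a p. Between PLCβ1b and PLCβ1a none was called and 4 had an unadjusted p below 0.05, 2 higher and 2 lower (2.24% and 2.18% of all genes). Against the blank and PLCβ1a hearts together none was called (0.0244% and 0.0163% of all genes, higher and lower) and 5 had such a p, 2 higher and 3 lower (2.77% and 2.31% of all genes). The gene called was Cacna1c, the pore subunit of the L-type calcium channel, which PKA regulates. Cacna1c ran from 151 to 162 CPM in the blank group, from 164 to 197 with PLCβ1a and from 165 to 192 with PLCβ1b. All hearts of both PLC groups were above every blank heart, and the 2 comparisons share these blank hearts. Of all genes, 0.594% had no overlap in CPM between PLCβ1a and blank hearts, and 0.48% had none between PLCβ1b and blank hearts. Of the 86 pathway genes this held for 2 in each comparison. Its log2 fold change was 0.22 (SE 0.04, FDR 0.0386) for PLCβ1a and 0.18 (SE 0.04, FDR 0.115) for PLCβ1b against blank in edgeR's quasi-likelihood model. Without PLCβ1a heart 11 or blank heart 34 the FDR for PLCβ1a rose to 0.124 and 0.157, and in limma on log2 FPKM with 0.1 or 1 added it was 0.591 and 0.495, so that the call was lost in each. In PLCβ1b the FDR fell below 0.1 in 5 of the 9 other settings. The median log2 fold change of the 86 genes was -0.0043 for PLCβ1b and 0.01 for PLCβ1a against blank.

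Cacnb2, which encodes an auxiliary subunit of the same channel, had lower values in PLCβ1b hearts. It ran from 33.9 to 37.0 CPM in PLCβ1b hearts, from 37.7 to 44.0 in blank hearts and from 37.1 to 43.7 in PLCβ1a hearts, so each PLCβ1b heart was below each of the other 12. Of the 12281 genes, 2 had PLCβ1b hearts that did not overlap the other 12 in CPM. The log2 fold change against the other groups together was -0.17 (SE 0.04, unadjusted p = 0.000274), and it was not called (FDR 0.420, edgeR's quasi-likelihood test). The gap between the nearest hearts was small, from 37.0 in PLCβ1b to 37.1 in PLCβ1a, and in FPKM the groups overlapped, with 9.94 to 11.4 in PLCβ1b, 10.6 to 12.8 in PLCβ1a and 10.8 to 14.2 in blank hearts.

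Among the PKA anchoring proteins Akap5, which ties PKA to channels and receptors at the membrane, ran from 3.77 to 5.13 CPM in PLCβ1b hearts against 2.25 to 4.03 in blank and 3.42 to 5.004 in PLCβ1a hearts. In PLCβ1b 5 of 6 hearts were above every blank heart. In the fit the log2 fold change against blank was 0.43 (SE 0.12, FDR 0.235, edgeR's quasi-likelihood test), and it rested on 39 to 116 counts per heart. Akap12, another anchor, had a log2 fold change of 0.22 (SE 0.06, FDR 0.256) for PLCβ1a against blank, with 4 of 6 hearts above all blank hearts.

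None of the remaining pathway genes chosen for a low p was called. Creb1, the cAMP response factor, had a log2 fold change of -0.16 (SE 0.06) for PLCβ1b against blank, and Bves, a cAMP-binding Popeye protein, -0.21 (SE 0.07) for PLCβ1a against blank. Rrad, an inhibitor of the L-type channel, had a log2 fold change of 0.38 (SE 0.13) and Pde4dip, an anchor of phosphodiesterase, -0.08 (SE 0.04) between PLCβ1b and PLCβ1a. Among these further genes, which leave out the 9 members, the most abundant of each role in blank hearts were Chrm2, the muscarinic receptor that opposes β-adrenergic signalling, at 19.0 ± 2.20 FPKM, Gnas, the stimulatory G protein, at 165 ± 3.005, the receptor kinase Adrbk1 at 7.54 ± 0.496, the cyclase Adcy9 at 4.05 ± 0.651 and the phosphodiesterase Pde7a at 7.90 ± 1.94 (SD, n = 6). The inhibitor of PKA Pkia stood at 45.6 ± 1.54 FPKM, Pde4dip at 136 ± 8.85, the cAMP-binding Popdc2 at 82.6 ± 10.1, the phosphatase subunit Ppp1cb at 51.5 ± 1.83 and the PKA target troponin I, Tnni3, at a mean of 1873. Adcy6 at 16.8 FPKM in blank hearts thus stood above every other cyclase, while Pde3a at 8.18 and Pde7a at 7.90 FPKM, the highest of the phosphodiesterases, did not differ beyond the spread of Pde7a.

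**Figure D4:**
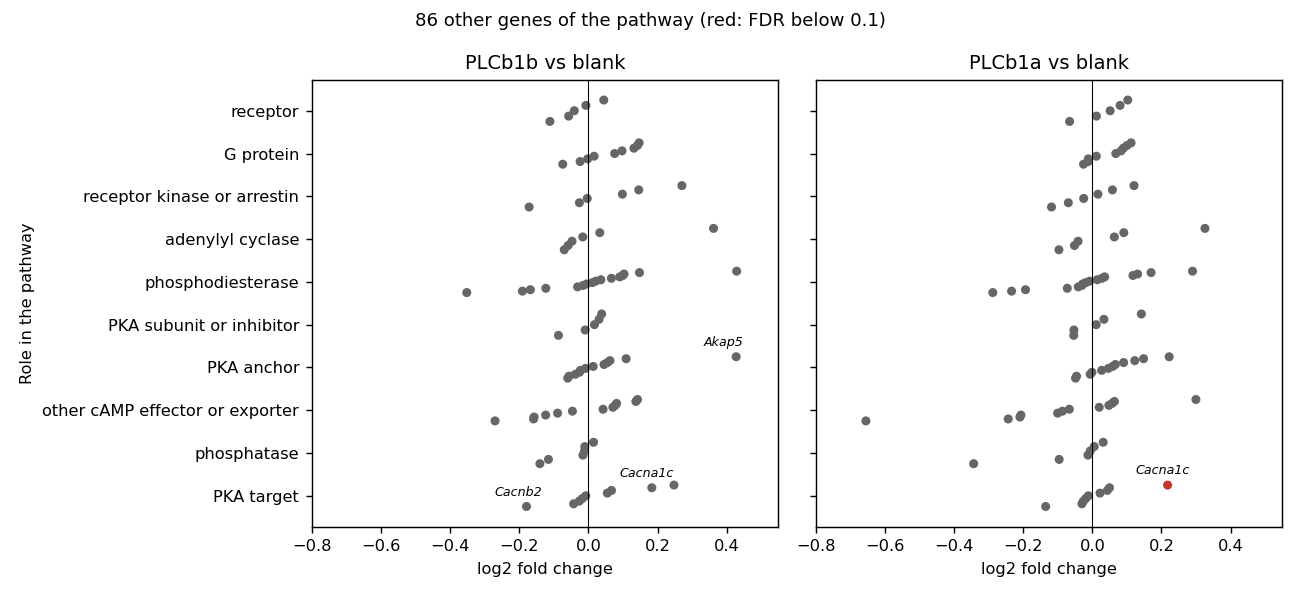
Log2 fold change of the 86 other pathway genes tested, grouped by role, for PLCβ1b against blank and PLCβ1a against blank hearts. Each point is 1 gene, and the only gene called at an FDR below 0.1 is Cacna1c in PLCβ1a hearts, at 0.22.

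Because the amount of Plcb1 RNA differed widely between hearts given the same vector, each member was set against Plcb1 across the 12 PLC hearts, with the mean of each group removed and hearts permuted within groups (100000 permutations). Adcy5 and Prkaca had the largest r, and neither passed adjustment over all genes. In PLCβ1b heart 8, with the least Plcb1 of its group at 23.2 CPM, Adcy5 was 24.4 and Prkaca 66.4 CPM, both the lowest of the group, and in PLCβ1a heart 21, with the most Plcb1 of its group at 29.3 CPM, Adcy5 was 27.4 and Prkaca 72.2 CPM, both the highest of the group. For Adcy5, r was 0.80 (permutation p = 0.00185) and rho 0.72 (p = 0.00404), and for Prkaca r was 0.74 (p = 0.00722) and rho 0.79 (p = 0.0113). Over the 12280 genes set against Plcb1 in the same way the adjusted permutation p for r was 0.306 and 0.369, and of these genes 8.42% had a p below 0.05 and 0 had an adjusted p below 0.1. An r of at least this size was found for 0.831% of genes in the case of Adcy5 and 1.92% in that of Prkaca.

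The relations differed in how they rested on single hearts. Within groups r was 0.83 for Adcy5 in both PLCβ1a and PLCβ1b hearts, and 0.59 and 0.87 for Prkaca. Without PLCβ1b heart 8 the r of Adcy5 fell to 0.55 (permutation p = 0.0116), the lowest value with any heart left out, and without the 2 hearts farthest from the median of Plcb1 it was 0.62. For Prkaca r stayed between 0.69 and 0.80 with each heart left out, and was 0.76 without the 2 farthest hearts. In log2(FPKM + 0.1) r was 0.61 (permutation p = 0.0121) for Adcy5 and 0.68 (p = 0.0172) for Prkaca. With the depth, the share of mt-Rnr2 or the TMM factor of the library held constant in turn, partial r was 0.80 to 0.81 for Adcy5. For Prkaca it was 0.74 to 0.81. Plcb1 itself had an r of 0.07, 0.11 and 0.09 with these measures, so holding them constant could move r only little. The part of the library in these relations was not tested. Pde4d had an r of the other sign (r = -0.53, permutation p = 0.0401, rho = -0.43, p = 0.139), with an adjusted p of 0.544 over all genes. The remaining 5 members had r between -0.29 and 0.48, with permutation p of at least 0.199.

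**Figure D5:**
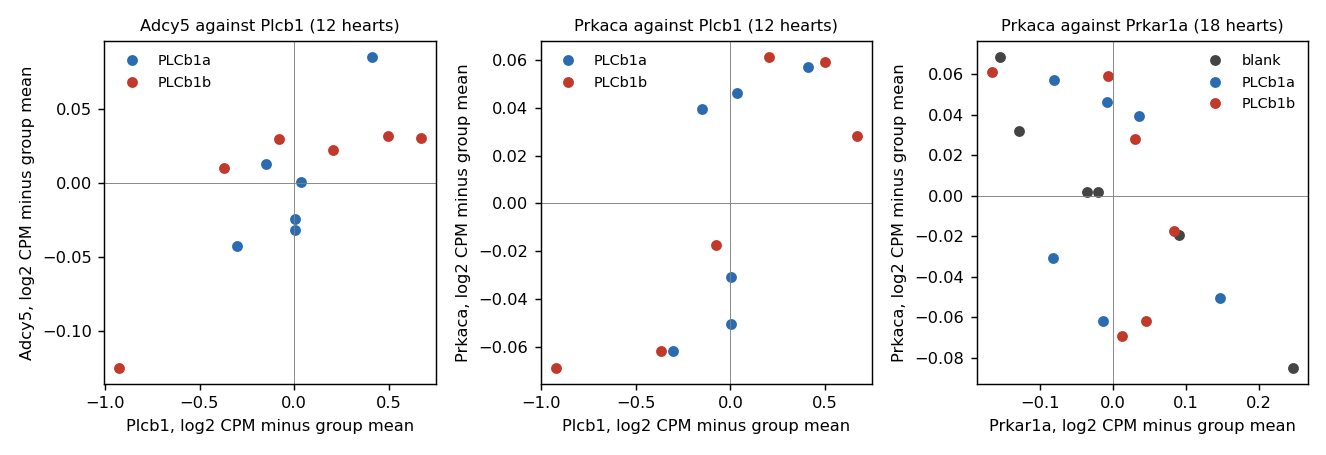
Deviations from the group mean in log2 CPM, for Adcy5 against Plcb1 and Prkaca against Plcb1 in the 12 PLC hearts and for Prkaca against Prkar1a in all 18 hearts, each point 1 heart. Adcy5 and Prkaca lie higher where Plcb1 is higher (r = 0.80 and 0.74), the lowest point on the left being PLCβ1b heart 8, and Prkaca lies lower where Prkar1a is higher (r = -0.66).

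The 8 members form 28 pairs, which were compared across the 18 hearts in the same way. The pair with the smallest p was that of the PKA subunits, where hearts with more Prkar1a tended to have less Prkaca (r = -0.66, permutation p = 0.00362, and rho = -0.61, p = 0.0107). Adjusted over the 28 pairs, p was 0.101 for r. Blank heart 26 had both the most Prkar1a of all hearts, at 168 CPM, and the least Prkaca, at 62.9 CPM. Within groups r was -0.98 for blank, -0.33 for PLCβ1a and -0.59 for PLCβ1b, without blank heart 26 it was -0.55, and without the 2 hearts farthest from the median of Prkaca it was -0.58. Prkar1a also moved against the depth (r = -0.48) and the TMM factor (r = -0.48), and CPM are themselves divided by the latter. With each held constant in turn the partial r of the pair was -0.63 and -0.60. In log2(FPKM + 0.1) the relation was weaker (r = -0.27, permutation p = 0.324), so it depended on the unit. In that unit Adcy5 and Prkaca had the largest r (r = 0.70, permutation p = 0.00311, adjusted over the 28 pairs 0.0871). In log2 CPM r was 0.36 (permutation p = 0.160), with a range of 0.25 without PLCβ1b heart 8 to 0.58 without blank heart 33. For both genes FPKM per CPM was lowest in PLCβ1a heart 14 and highest in blank heart 34. The same was true of Adrb1, Pde3a and Prkar1a, so it was not particular to this pair, and its part in r was not tested. The pair next to that of the PKA subunits was Adcy6 and Pde3a (r = 0.47, permutation p = 0.0195, adjusted p = 0.273). Values of a library share its scaling.

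For each member the gene most like it across the 18 hearts, by r of log2 CPM with group means removed over 12280 genes, is given as a description. It was A530050N04Rik for Adrb1 (r = 0.93), Gemin5 for Grk5 (r = 0.84), Ctbp1 for Adcy5 (r = 0.81) and Trip12 for Adcy6 (r = 0.88). For Pde4d it was Catsper2 (r = 0.81), for Pde3a Akr1b10 (r = 0.87), for Prkaca Pdrg1 (r = 0.84) and for Prkar1a Anxa5 (r = 0.88). These are the highest of 12280 values each, over hearts that share depth and scaling.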

How the data were processed

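Ribosome-depleted RNA of 18 hearts was sequenced in strand-specific pairs. The authors aligned reads to mm10 with TopHat2 2.0.10 and counted them by strand with HTSeq (union). Counts were deposited unscaled. The deposited FPKM carry no stated program, although Cufflinks 2.1 is among the tools in the submitters' processing notes. TMM scaling and edgeR 4.0.16 were applied to the counts (robust quasi-likelihood F test, 3 groups in 1 model, R 4.3.3) after filterByExpr with a minimum count of 10, with Benjamini-Hochberg adjustment over 12281 genes and a call at an FDR below 0.1. CPM are TMM-scaled, and log2 CPM used a prior count of 2. For 1 gene or ratio an exact two-sided permutation test was run (924 arrangements for 6 hearts against 6, smallest p 0.00216, and 18564 for 6 against 12). The 9 members and the gene lists were chosen with earlier results of these data known. Pathway genes were named if called, if among the 2 lowest p in each direction of a comparison, or if most abundant in their role. Some genes of the pathway list are counted but not reported by name here. Alternatives were DESeq2 1.42.0, edgeR's exact test, limma 3.58.1 on log2 FPKM, sva 3.50.0, other scalings and filters, and each heart left out. Leaving hearts out and other scalings for relations across hearts were chosen after seeing the data. Programs were tested on simulated data. Other steps ran in Python 3.11.15 with scipy 1.17.1, pandas 2.3.3, matplotlib 3.10.9 and numpy 2.4.6.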

Additional observations from a re-analysis of the deposited data

Results flagged for a closer look

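Single hearts stood apart from the other 5 of their group in 7 of 54 comparisons of a gene within a group. In independent groups chance flags about 1 in 20. Here the same hearts recur in every gene, and some genes were chosen for a low p in these data. The rates therefore cannot be weighed against each other. Among the members, Grk5 was highest in blank heart 30, at 10.21 CPM against 7.06 to 7.85 in the others, and in PLCβ1b heart 8, at 8.80 against 7.22 to 7.64. Adcy5 was lowest in PLCβ1b heart 8, at 24.4 CPM against 26.8 to 27.2. Prkar1a was lowest in PLCβ1b heart 10, at 125 CPM against 140 to 149. Among the other pathway genes, blank heart 30 was highest in Creb1, at 28.9 CPM against 22.0 to 24.2. PLCβ1a heart 13 was highest in Akap5, at 5.004 CPM against 3.42 to 3.93, and in Rrad, at 52.0 CPM against 34.1 to 38.1.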

How the results depend on the processing

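No paired analysis was possible because the mouse numbers are not shared between groups. No member was called with any program, scaling, filter, threshold or heart left out. At an unadjusted p below 0.05 there was 1 member, Pde3a in PLCβ1a against blank. Such a p was also reached by Adcy6 against blank in both PLC groups in limma on log2 FPKM, with no filter or without certain hearts, and without certain hearts by Pde4d and Adrb1 in PLCβ1a and by Adcy5 and Pde3a in PLCβ1b against blank. Over other settings the lowest FDR of a member was 0.245. The direction of the members' log2 fold changes was kept in 273 of 280 values under other settings and in 542 of 576 with a heart left out. The values that turned lay between -0.0364 and 0.0564 after turning. Not all had been near 0 before: Grk5 in PLCβ1a against blank was -0.0882 with all hearts and 0.0026 without blank heart 30. Prkar1a in PLCβ1b against blank was 0.0009 with 1 surrogate variable. In limma on log2 FPKM with 0.1 or 1 added, Adrb1 in PLCβ1b against PLCβ1a was 0.0005 and 0.0013, and in PLCβ1b against the other groups together Grk5 was -0.0122 and -0.0099 and Pde3a -0.0223 and -0.0201. The r of Plcb1 and Adrb1 was 0.0791 in FPKM.

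With a heart left out, the ranges of the values that turned were, against blank, -0.0804 to 0.0564 (Grk5) and -0.0502 to 0.0320 (Prkar1a) in PLCβ1b, and -0.1234 to 0.0026 (Grk5) and -0.0117 to 0.0668 (Adcy5) in PLCβ1a. In PLCβ1b against PLCβ1a they were -0.0883 to 0.0067 (Adrb1), -0.0317 to 0.0185 (Adcy6) and -0.0071 to 0.0196 (Prkaca). In PLCβ1b against the other groups together they were -0.0007 to 0.0939 (Adrb1), -0.0364 to 0.0551 (Grk5), -0.0284 to 0.0242 (Pde4d), -0.0199 to 0.0519 (Pde3a) and -0.0002 to 0.0470 (Prkar1a).

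Pathway genes called in PLCβ1b against blank numbered 0, but 1 with DESeq2, edgeR's exact test, no filter or only the groups compared (Cacna1c), and 3 with 1 surrogate variable (Akap5, Cacna1c and Cacnb2), and 0 to 1 with a heart left out. In PLCβ1a against blank they were 1, but 2 with edgeR's exact test and 0 in limma on either log2 FPKM, and 0 to 2 with a heart left out. Against both other groups together 1 surrogate variable gave 1 (Cacnb2). At an unadjusted p below 0.05 the 4 comparisons gave 10, 9, 4 and 5. In FPKM 1 pair of members had an adjusted p below 0.1 (Adcy5 and Prkaca), and none in CPM. The cause of these moves was not tested. Over all genes, calls ran from 3 to 43 for PLCβ1b and from 2 to 53 for PLCβ1a against blank under other settings. Adrb1, Grk5 and Ppp1r1a rest on the fewest counts, which limits them most.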
